A study of Mus musculus with 2 samples.

Results

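The cells described here were 448 of 48143 barcodes from injured mouse hind limb muscle, chosen by their own transcripts as mononuclear phagocytes with *Dcstamp*, *Ear2* and *Retnla* among their marker genes. A barcode was a member when it had a UMI (unique molecular identifier, 1 captured transcript) of at least 4 of the 7 genes *Dcstamp*, *Rnase2a*, *Ear2*, *Retnla*, *Mmp12*, *Itgax* and *Pdcd1lg2*. It also needed at least 2 of the 4 macrophage genes *Csf1r*, *Cd68*, *Adgre1* and *Lyz2*, fewer than 4 of the 6 lipid-handling genes *Gpnmb*, *Fabp5*, *Atp6v0d2*, *Syngr1*, *Rnf128* and *Trem2*, and no UMI of the dendritic cell genes *Cd209a* and *Ccr7*. Only barcodes above 200 genes, and with mitochondrial transcripts below 10% of their UMIs, were considered. The IgG library held 137 members of 23385 such barcodes, and the SPP1-nAb library held 311 of 24758.

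The 2 scRNA-Seq libraries came from male mice of 10 to 16 weeks, C57BL/6J by the labels and carriers of the *S100GFP* transgene by the methods, in which the S100B promoter drives GFP in Schwann cells. The peroneal nerves of both legs were crushed in all mice. The tibialis anterior (TA) then received 10 µL with 2 µg of SPP1-neutralizing antibody (SPP1-nAb) or goat anti-mouse IgG every 2 days, and muscle was taken at 7 dpi. The study describes these libraries as TA, while the protocol in the labels also names the gastrocnemius (GTN). Live GFP+ and GFP- cells were sorted, although the sample titles name the GFP-positive fraction only. Male mice were pooled, and neither the number pooled nor the mix of the 2 sorted fractions is given in the sources used here. With 1 library per condition, the injection cannot be told apart from the mice, the sort or the library, so no test between conditions was possible, and every interval below is a 95% interval that covers counting error only.

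The libraries held 97607674 UMIs (IgG) and 127719916 UMIs (SPP1-nAb), with medians of 3822 and 4756 UMIs per kept barcode. Members were deeper, with medians of 7939 and 7940 UMIs, against 4186.5 and 5194 in the other phagocytes that passed the same 4-gene macrophage criterion without *Cd209a* or *Ccr7*. A rule that asks for 4 detected genes favors deep barcodes. The libraries shared 163 barcode sequences. Of the members' barcode sequences, 10 also occurred in the other library, and 1 was a member in both.

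DC-STAMP, the product of *Dcstamp*, is a membrane protein needed for the fusion of osteoclasts and macrophages into multinucleate cells. *Ear2* and *Rnase2a* encode secreted ribonucleases of the eosinophil-associated family, and *Retnla* encodes RELMα, a secreted protein that IL-4 and IL-13 induce in macrophages through the transcription factor STAT6. *Mmp12* encodes macrophage elastase, *Itgax* encodes the integrin CD11c and *Pdcd1lg2* encodes PD-L2, a ligand of the receptor PD-1 that is also induced by IL-4. Alternatively activated macrophages, as such cells are called, take part in repair of injured muscle and nerve, and SPP1 (osteopontin) is a secreted phosphoprotein of phagocytes and other cells at such sites.

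The promoters of 4 genes are shown because they hold the letters of a STAT6 site, TTC and GAA 4 bases apart, which read the same way on both strands. Promoters, taken from RefSeq (GRCm38.p6) as 250 bases before to 50 bases after each start, were in the table for 6 of the 7 marker genes, all but *Dcstamp*. The STAT6 letters were in a promoter of 3 of these 6 genes, *Itgax*, *Pdcd1lg2* and *Retnla*, in 6.95% of all 32851 promoters and in at least 1 promoter of 8.01% of all 27025 genes. The 6 genes had 7 promoters in the table, *Mmp12* having 2. Of 19 matched genes among the 25 that led the comparison of members with other phagocytes, 2 held them, *Ccl17* and *Vdr*. The first 3 sequences below are those of the marker genes and the last is that of *Ccl17*, the leading gene outside the rule. Each runs 5′ to 3′ over the 250 bases before the start, on the plus strand, with the STAT6 letters and the 4 bases between them in capitals.
Retnla: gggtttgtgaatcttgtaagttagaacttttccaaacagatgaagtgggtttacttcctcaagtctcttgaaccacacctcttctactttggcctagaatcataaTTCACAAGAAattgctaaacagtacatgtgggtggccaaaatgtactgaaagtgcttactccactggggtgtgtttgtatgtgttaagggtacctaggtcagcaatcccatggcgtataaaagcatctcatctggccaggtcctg
Pdcd1lg2: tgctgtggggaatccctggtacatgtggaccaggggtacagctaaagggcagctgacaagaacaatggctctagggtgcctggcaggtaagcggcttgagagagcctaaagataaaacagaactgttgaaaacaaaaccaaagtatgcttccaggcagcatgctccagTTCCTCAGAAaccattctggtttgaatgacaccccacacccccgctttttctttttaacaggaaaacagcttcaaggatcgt
Itgax: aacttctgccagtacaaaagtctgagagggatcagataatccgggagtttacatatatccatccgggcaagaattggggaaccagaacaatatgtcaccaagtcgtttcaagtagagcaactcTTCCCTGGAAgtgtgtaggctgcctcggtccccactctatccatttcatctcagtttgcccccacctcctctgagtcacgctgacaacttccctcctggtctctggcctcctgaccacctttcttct
Ccl17: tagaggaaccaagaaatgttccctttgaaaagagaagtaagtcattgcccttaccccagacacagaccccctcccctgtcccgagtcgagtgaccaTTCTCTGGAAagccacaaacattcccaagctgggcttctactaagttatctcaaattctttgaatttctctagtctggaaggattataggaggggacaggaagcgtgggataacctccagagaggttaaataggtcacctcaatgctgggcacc
The windows were chr16:48842359-48842608 for *Retnla*, chr19:29410669-29410918 for *Pdcd1lg2*, chr7:128129300-128129549 for *Itgax* and chr8:94810203-94810452 for *Ccl17*. The capitals began 145, 82, 127 and 154 bases before the start, in that order. Other motifs, on both strands, were described in the same way. The PU.1 letters GAGGAA were in at least 1 promoter of 4 of the 6 marker genes, in 28.3% of all promoters and in at least 1 promoter of 31.3% of all genes. The AP-1 letters TGANTCA were in 2 of the 6 genes, 7.81% of all promoters and 8.97% of all genes. The STAT5 letters, TTC and GAA 3 bases apart, were in none of the 6, 8.30% of all promoters and 9.55% of all genes. A match describes letters in a window and is not a binding site.

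All 7 marker genes were higher in members than in other phagocytes in both libraries, which the rule fixed. Levels are CPM, the UMIs of a gene summed over the cells and scaled by all UMIs of the same cells. *Retnla* (chromosome 16, 48662895 to 48664824, GRCm39) stood at 5095 CPM (4963 to 5229) in IgG members, and at 5444 CPM (5357 to 5532) in those of SPP1-nAb, against 492 and 636 CPM in other phagocytes. The 2 libraries were close in this gene, and 70.1% and 75.6% of members had a UMI of it. *Dcstamp* (chromosome 15, 39609214 to 39624334) stood at 301 CPM (269 to 335) in IgG members, and at 145 CPM (131 to 160) in those of SPP1-nAb, against 5.64 and 4.57 CPM in other phagocytes. It was thus lower in the SPP1-nAb members, where 42.4% had a UMI, than in the IgG members, where 73.0% did. *Rnase2a* (chromosome 14, 51492719 to 51493595) ran the other way, at 116 CPM (96.7 to 138) in IgG members, and at 326 CPM (305 to 348) in those of SPP1-nAb. Its level in other phagocytes was also higher in the SPP1-nAb library, at 38.7 against 9.04 CPM.

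*Ear2* (chromosome 14, 44311771 to 44340996) was the marker detected in most members, 87.6% and 93.6% of them, at levels of 648 CPM (602 to 697) for IgG, and 974 CPM (937 to 1011) for SPP1-nAb. Its near-identical relatives *Ear1*, *Ear6*, *Ear10* and *Ear14* were at 0 in members, and how the counting assigned reads that match several of these genes is uncertain. *Mmp12* (chromosome 9, 7344381 to 7369499) stood at 1857 CPM (1778 to 1939) and 1674 CPM (1626 to 1723). *Itgax* (chromosome 7, 127728668 to 127749829) stood at 243 CPM (215 to 274) and 200 CPM (183 to 217). For both genes the SPP1-nAb value was slightly lower. *Pdcd1lg2* (chromosome 19, 29388319 to 29448882) was detected in the fewest IgG members, 24.1%, at 38.6 CPM (27.9 to 52.0), and in 41.5% of SPP1-nAb members, at 71.2 CPM (61.5 to 81.9).

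**Figure D1:**
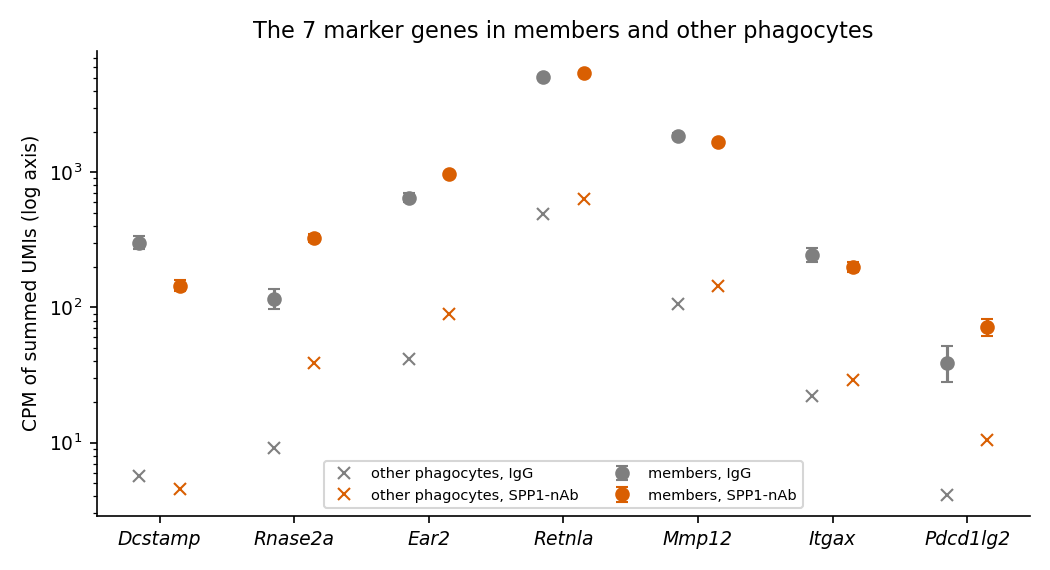
Levels of the 7 marker genes (CPM of summed UMIs, log axis) in members (circles, with 95% counting intervals) and other phagocytes (crosses) of each library. The genes chose the members, so the gap between circles and crosses describes the rule; *Dcstamp* was higher in IgG members (301 against 145 CPM) and *Rnase2a* in SPP1-nAb members (326 against 116 CPM).

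Because the same UMIs chose the members and measured them, members were also chosen on a random part of each barcode's UMIs, drawn with a chance of 1 in 2, and measured on the rest. This gave 71 members (IgG) and 176 (SPP1-nAb). All 7 genes were still higher in the UMIs that had not been used for the choice. Both parts come from the same barcodes and cover the same 7 genes, so this still follows from the choice and describes the rule. *Dcstamp* was 43.5-fold (33.6 to 56.0) above other phagocytes in IgG and 30.5-fold (24.9 to 37.2) in SPP1-nAb. *Retnla* was 8.49-fold and 8.86-fold above them, and *Pdcd1lg2*, the smallest difference, 6.78-fold and 4.78-fold. The 4 macrophage genes were lower than in other phagocytes in this measure, to differing degrees. *Lyz2*, which encodes lysozyme, was at 0.889-fold in IgG and 0.730-fold in SPP1-nAb, *Csf1r* at 0.449-fold and 0.742-fold, and *Cd68* at 0.651-fold and 0.623-fold, whereas *Adgre1*, which encodes F4/80, stood at 52.7 CPM (0.171-fold) in IgG and 114 CPM (0.426-fold) in SPP1-nAb.

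Most members sat near the limits of the rule. In IgG, 90 had exactly 4 marker genes, 44 had 5, 3 had 6 and none had all 7. In SPP1-nAb, 219 had exactly 4, 68 had 5, 24 had 6 and none had 7. Just outside, 185 and 510 barcodes had exactly 3 marker genes and met the other criteria. Summed over the 7 genes, these stood at 6841 and 7149 CPM, the barcodes with exactly 4 at 8484 and 8410 CPM, and those with 5 or more at 8009 and 9608 CPM. These sums use the genes of the rule itself and so describe the limit only. At the other limit, 23 and 91 members had 3 lipid-handling genes, and 14 and 61 barcodes with exactly 4 were left out.

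The members were not uniform in their markers. In IgG, *Dcstamp* without *Rnase2a* was found in 85 members (62.0%, 53.4% to 70.2%, Clopper-Pearson), and *Rnase2a* without *Dcstamp* in 23 (16.8%, 10.95% to 24.1%). In SPP1-nAb, 89 members (28.6%) had *Dcstamp* without *Rnase2a*, and 136 (43.7%) had *Rnase2a* without *Dcstamp*. Only 15 IgG and 43 SPP1-nAb members had both genes. The most frequent combination in IgG was *Dcstamp*, *Ear2*, *Retnla*, *Mmp12* and *Itgax* (20 members). In SPP1-nAb it was *Rnase2a*, *Ear2*, *Retnla* and *Pdcd1lg2* (59 members, 19.0%).

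When phagocytes were clustered without the rule genes and *Spp1*, members fell mainly into 3 of 24 clusters, and some members were found in 21 of them. The cluster with most members was led by *Cd7*, *Ccl17* and *Klrd1* and held 65 IgG members (47.4%, 38.9% to 56.1%) and 88 SPP1-nAb members (28.3%, 23.4% to 33.7%). The second, led by *Fabp4*, which encodes a fatty acid binding protein, with *Rnf128* and *Mmp12* also among its leading genes, held 38 (27.7%) and 60 (19.3%). The third, led by *Gm9733*, *Rnase2a* and *Tarm1*, with *Ear2* and *Chil3* among its leading genes, held 11 (8.03%) and 49 (15.8%). The other 23 IgG members (16.8%) and 114 SPP1-nAb members (36.7%) lay elsewhere. Of these, a cluster led by *Ppbp* and *Cxcl3* held 1 and 22, and one led by *Acp5*, which encodes tartrate-resistant acid phosphatase, held 5 and 22. A cluster of cycling genes such as *Hist1h3c* and *Hmmr* held 6 and 14. The first cluster did not hold most members under all settings. At a coarser resolution, the most in 1 cluster were 56 IgG and 98 SPP1-nAb members, against 47 and 71 in the cluster that matched the first, and with 15 components they were 58 and 89 against 45 and 57.

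**Figure D2:**
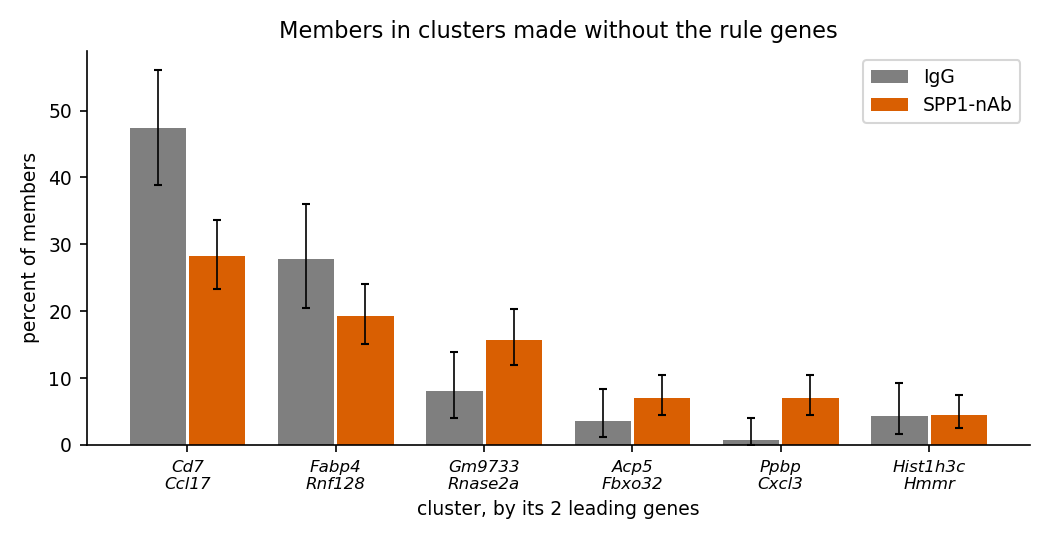
Percent of members of each library (bars, with 95% Clopper-Pearson intervals) in the 6 clusters that held most of them, each named on the x axis by its 2 leading genes. The first cluster took 47.4% of IgG members, 28.3% of SPP1-nAb members, and the third 8.03% and 15.8%.

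The first cluster also held dendritic cell-like barcodes, since 9 of 11 dendritic markers were raised at least 1.5-fold in it, among them *Flt3*, *Zbtb46* and *Cd209a*. At a finer resolution 2 clusters, of 765 and 743 barcodes, matched it, 88.5% of their barcodes lying in it, and together held 52 IgG and 81 SPP1-nAb members against its 65 and 88. The former had 9 of the 11 dendritic markers and held 1 IgG and 5 SPP1-nAb members. The latter, led by *Cd226*, *Upb1*, *Spink2*, *Cd2* and *Kcnq1*, with *Dcstamp*, *Lyz1* and *Retnla* among its leading genes, held 51 and 76, which were 14.0% and 20.0% of its barcodes. Only *Zbtb46* and *Cd209a* of the dendritic list were raised there. Nearest neighbors were taken as 20 with the barcode itself, which was then left out. Among those of a member, 24.0% (IgG) and 16.9% (SPP1-nAb) were members, against 0.943% and 1.22% around other barcodes.

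Doublets, barcodes that hold 2 cells, were scored from simulated pairs and kept. Of members, 28 (20.4%) and 67 (21.5%) were among the 10% of barcodes with the highest scores, against 15.2% and 13.2% of other phagocytes. In the first cluster this share was 10.8% and 13.6%, and outside the 3 leading clusters it was 69.6% and 41.2%. The members outside those clusters thus had the largest share of high scores.

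The label macrophage was checked against its genes. Of 11 macrophage core genes outside the rule, none was at least 2-fold higher and 3 were at least 2-fold lower in members than in other phagocytes of both libraries. *Fcgr1*, the high-affinity Fc receptor, stood at 57.5 and 78.8 CPM against 247 and 203. *Mertk*, a receptor for apoptotic cells, stood at 35.0 and 35.4 CPM against 106 and 80.6. The complement gene *C1qa* stood at 452 and 710 CPM against 1642 and 1454. The 11 genes that define dendritic cells summed to 24.2 and 30.7 CPM, against 48.8 and 32.3 CPM in other phagocytes and 1677 and 1444 CPM in the dendritic set, with *Cd209a* and *Ccr7* at 0 by the rule. They had too few UMIs in members to be called higher by the rule of size. *Flt3*, the growth factor receptor of dendritic cells, had no UMI in IgG members and 3 UMIs in SPP1-nAb members (1.10 CPM). It stood at 122 and 108 CPM in the dendritic set, the barcodes with a *Cd209a* UMI and at least 2 of *Flt3*, *Zbtb46*, *Dpp4* and *Kmo*. These genes chose that set, so its levels of them, and in part its sum over the 11 genes, were raised by the choice. *Zbtb46*, a transcription factor of dendritic cells, stood at 10.8 and 10.2 CPM in members, above the 4.33 and 2.91 CPM of other phagocytes, and at 84.4 and 95.8 CPM in those barcodes. The cells are therefore called here by the genes of the rule, and not by a cell type.

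Members made up 0.586% (0.492% to 0.692%) of IgG barcodes and 1.26% (1.12% to 1.40%) of SPP1-nAb barcodes, a ratio of 2.14 (1.75 to 2.64). As a share of phagocytes the values were 0.985% and 1.77%, a ratio of 1.79 (1.46 to 2.21). Depth differed between the libraries. At an even 2000 UMIs per barcode, shallower ones left out, members numbered 30 of 19110 in IgG, or 0.157%, and 63 of 21043 in SPP1-nAb, or 0.299%, a ratio of 1.91 (1.22 to 3.05). Thinned to 4000 UMIs, the ratio was 1.61 (1.23 to 2.12).

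The ratio depended on which markers were asked for. Without *Rnase2a* in the rule it was 1.55 (1.22 to 1.97), and without *Dcstamp* 2.98 (2.30 to 3.89), the lowest and highest of the 22 alternatives in the plot of ratios. Without the members in the first cluster it was 2.93 (2.23 to 3.87). The SPP1-nAb share was thus the higher one under each of them, by a varying factor. The shares also follow the sort, since the mix of GFP+ and GFP- cells was not given.

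**Figure D3:**
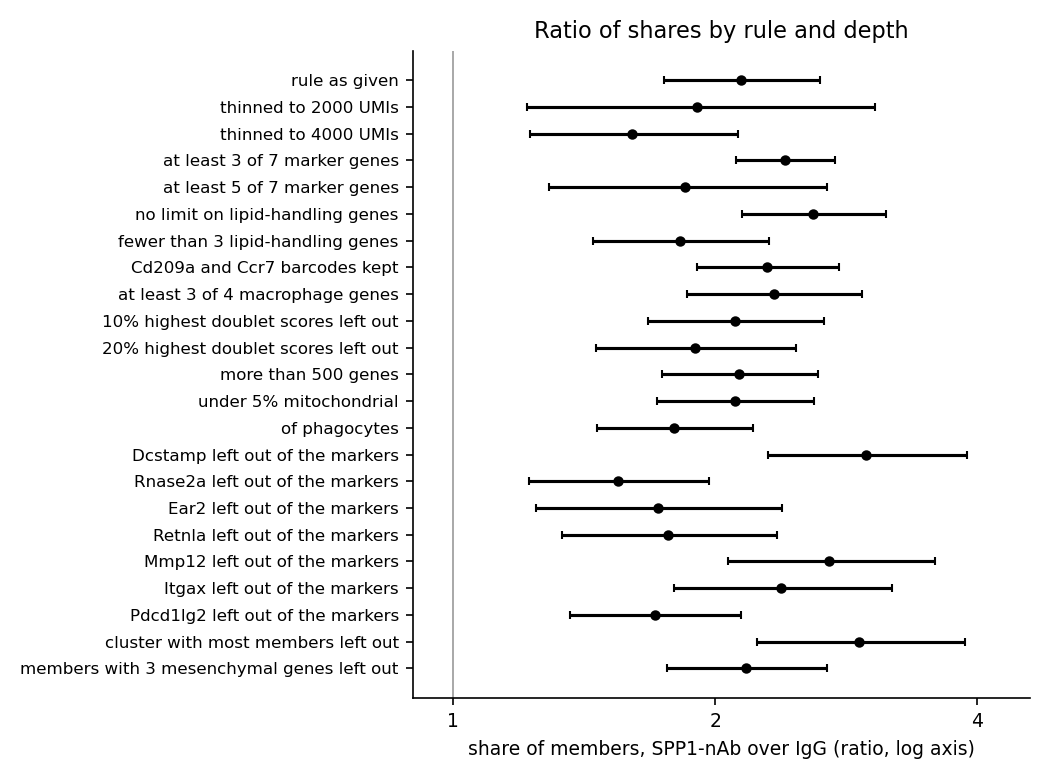
Ratio of the share of members in SPP1-nAb over IgG (log axis, points with 95% intervals for counting error) under the rule and under 22 alternatives, 1 per line. Every point lies to the right of 1, from 1.55 without *Rnase2a* to 2.98 without *Dcstamp*.

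Transcripts of the markers were also found in cells that should lack them, with a library difference that varied with the gene and the cells. In mesenchymal barcodes, *Retnla* had a UMI in 3.18% (IgG, median 5036 UMIs) and 8.24% (SPP1-nAb, median 7583 UMIs). *Ear2* had one in 0.835% and 3.79%, *Rnase2a* in 0.193% and 2.06%, and *Dcstamp* in 0.257% and 0.731%. Thinned to 2000 UMIs, *Retnla* remained in 1.60% and 3.72% and *Ear2* in 0.348% and 1.75% of these cells. In satellite barcodes, thinned likewise, *Retnla* was in 2.55% and 2.56%, and in endothelial barcodes in 4.41% and 4.58%. *Dcstamp*, without thinning, was in 0.552% and 0.278% of satellite barcodes. The members' own shares are fixed by the rule and cannot be read against this level. Whether these transcripts were free RNA was not tested, nor was their part in the ratio of shares. The share of other phagocytes with *Dcstamp* was 1.13% and 1.14%.

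Outside the rule, *Ccl17*, *Cd226*, *Gfra2*, *Rras2* and *Aldh1a2* led the genes that were higher in members. Of 11211 genes outside the rule, 79 (0.705%) were at least 2-fold above other phagocytes in both libraries and 395 (3.52%) at least 2-fold below. These 2 counts rest on different minimums. Of the 4830 genes with enough UMIs in members, 79 (1.64%) were above and 81 (1.68%) below, while the other 6381 passed through their UMIs in other phagocytes alone, could be called only lower, and gave the remaining 314. The rule chose the members from the same counts, so these values describe the chosen cells. The lists of genes below used the same minimums, so a gene with too few UMIs in members could be called only lower there. The other phagocytes held no barcode with *Cd209a* or *Ccr7*, by the same rule, and 8 of the 25 leading genes were higher in the dendritic set (139 and 124 barcodes with a *Cd209a* UMI and at least 2 of 4 other dendritic genes) than in members of both libraries. These were *Ccl17*, *Wnt11*, *H2-DMb2*, *Aff3*, *Tmtc2*, *Pclaf*, *Ccnd2* and *Klrk1*, *Ccl17* at 232 and 807 CPM in the dendritic set against 207 and 145 CPM in members. *Cd226* was lower there, at 42.8 and 16.3 CPM against 154 and 61.0. In the finer cluster led by *Cd226*, of which members were 14.0% and 20.0%, it stood at 153 CPM over all 743 barcodes. Much of the leading genes' level lay in members of the first cluster, which held 207 of 230 IgG and 374 of 397 SPP1-nAb UMIs of *Ccl17*, and 134 of 172 and 123 of 167 UMIs of *Cd226*. Without that cluster the log2 ratios to other phagocytes were 3.36 and 1.66 for *Ccl17*, and 3 of the 25 fell under 2-fold in 1 library, *Irf4* (0.73 in IgG), *Aff3* (0.98 in IgG) and *Klrk1* (0.75 in SPP1-nAb). *Pclaf* was not higher within it in both libraries, at 0.28 and -0.57. The median log2 ratio over all these genes was -0.11 in IgG and -0.06 in SPP1-nAb.

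*Cd226*, which encodes an adhesion and costimulatory receptor, stood at 154 CPM (IgG) and 61.0 CPM (SPP1-nAb) among members, against 8.48 and 3.37 CPM in other phagocytes. It was found in 53 and 55 members and was 18.2-fold and 18.1-fold above the others. *Gfra2*, a receptor for neurturin, stood at 39.5 and 23.7 CPM against 5.57 and 2.66. *Rras2*, a small GTPase, stood at 127 and 70.1 CPM against 11.4 and 10.3. Both were detected in a minority of SPP1-nAb members, 44 for *Gfra2* and 103 for *Rras2*. *Aldh1a2*, which encodes a retinaldehyde dehydrogenase that makes retinoic acid, stood at 48.5 and 29.6 CPM against 4.59 and 4.42. *Vdr*, the vitamin D receptor, stood at 71.0 and 56.6 CPM against 12.4 and 17.6.

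*Irf4*, a transcription factor that acts downstream of IL-4 in macrophages, stood at 71.9 and 42 CPM against 13 and 6.92. In the dendritic set it stood at 54.7 and 61.0 CPM, above the members in SPP1-nAb. *Clec4b1*, a C-type lectin, was the most widely detected of the 25, in 112 and 185 members, at 365 and 279 CPM against 77.5 and 59.2. *Ccl17*, a chemokine ligand of CCR4, had the largest ratios, at 207 and 145 CPM against 3.70 and 3.79. It came from few cells, since only 17 IgG and 32 SPP1-nAb members had a UMI and 5 members held 87.0% and 78.6% of its UMIs. *Wnt11*, *Prelid2*, *Tenm4*, *AA467197*, *Gm6209*, *Chn2*, *Piwil2*, *Aff3*, *Tmtc2*, *Unc119*, *Mras*, *Palld*, *Pclaf*, *Fam78b*, *Ccnd2* and *Klrk1* completed the list with *H2-DMb2*, named below.

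**Figure D4:**
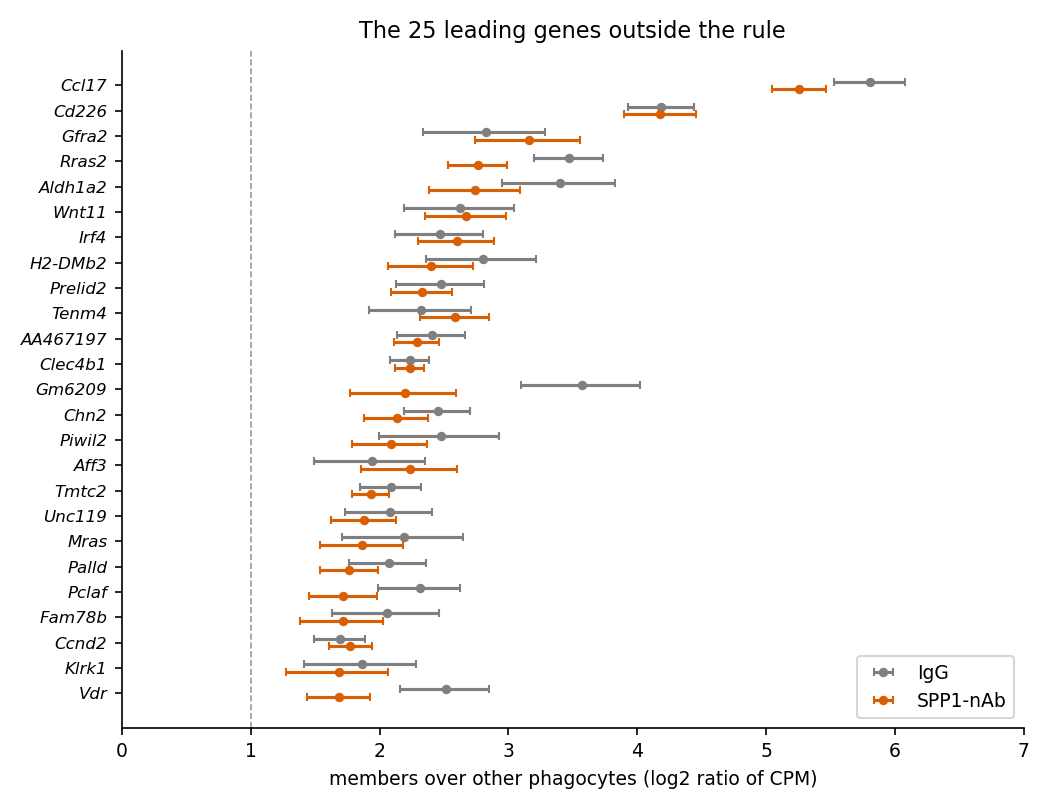
Log2 ratio of CPM in members over other phagocytes for the 25 leading genes outside the rule, in each library (points with 95% counting intervals); the dashed line marks 2-fold. *Ccl17* lies farthest right, and the intervals of the 2 libraries overlap for all genes but 5, *Ccl17*, *Rras2*, *Gm6209*, *Pclaf* and *Vdr*, each higher in IgG.

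Genes of resident macrophages were among those with the lowest ratios. *Cbr2*, a carbonyl reductase of resident macrophages, stood at 11.7 and 28.1 CPM in members against 239 and 177. *Ms4a7*, a membrane protein of macrophages, stood at 26.9 and 102 CPM against 848 and 744, and *Pf4*, a platelet-type chemokine, at 259 and 337 CPM against 2767 and 2127. Of 14 resident macrophage genes, 9 were at least 2-fold lower in both libraries. These were *Lyve1*, *Folr2*, *Cd163*, *Gas6*, *Cbr2*, *Selenop*, *Fcna*, *Pf4* and *Stab1*, and the list's median log2 ratio was -3.05 in IgG and -1.74 in SPP1-nAb. At most 7 of the 14 had enough UMIs in members to be called higher. The others could be called only lower, and the count of 9 and the medians include them. *Ccl24*, an eosinophil chemokine, was the only gene of the list that was higher, at 1148 and 1558 CPM against 272 and 700. The other genes of the 15 lowest were *Ctla2b*, *Rasgrp3*, *P2ry12*, *S100a9*, *Chp2*, *Tnnc2*, *Rhobtb1*, *S100a8*, *Hpgds*, *Reps2*, *Hpgd* and *Gpr34*, several of them with only a few UMIs in members.

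Many monocyte and interferon genes were lower as well. Of 13 monocyte genes, 6 were at least 2-fold lower in both libraries, among them *Ly6c2*, which encodes the Ly6C antigen of inflammatory monocytes, at 8.08 and 32.9 CPM against 338 and 165. *Fn1*, fibronectin, was the only one that was higher, at 1973 and 1560 CPM against 443 and 629. Of the 13 monocyte genes, 10 had enough UMIs in members to be called higher, and the others could be called only lower. *Ccr2*, the receptor by which monocytes enter tissue, stood at 861 and 712 CPM against 669 and 532 and so was close to other phagocytes. Of 13 interferon response genes, 8 were at least 2-fold lower and none higher. Only 7 of these 13 had enough UMIs in members to be called higher, and the others could be called only lower. *Ifit2* stood at 15.3 and 18.3 CPM against 143 and 63.2.

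Genes of alternative activation were mixed. Of 23, 5 were at least 2-fold higher in both libraries (*Mgl2*, *Ccl24*, *Ccl17*, *Irf4* and *Fn1*) and 5 at least 2-fold lower (*Cd163*, *Ccl8*, *Il10*, *F13a1* and *Ch25h*). The list's median log2 ratios were -0.10 and -0.17, close to those of all genes. *Mgl2*, a lectin for galactose-type sugars, stood at 535 and 570 CPM against 209 and 175. *Mrc1*, the mannose receptor, stood at 872 and 1209 CPM against 1793 and 1600 and was therefore lower in members of both libraries, though less than 2-fold in SPP1-nAb.

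Antigen presentation genes had a median above that of all genes. The list's median log2 ratio over 10 genes was 0.73 in IgG and 0.80 in SPP1-nAb, and *H2-DMb1* and *H2-DMb2*, chains of the peptide-loading molecule H2-M, passed 2-fold in both. *H2-DMb1* stood at 529 and 459 CPM against 178 and 196, and *H2-DMb2* at 48.5 and 32.9 CPM against 6.96 and 6.23. *Cd74*, the invariant chain, stood at 11122 and 10320 CPM against 7035 and 6556, 1.58-fold and 1.57-fold higher. The dendritic set stood higher still, at a sum over the list of 41045 and 37602 CPM against 27464 and 27996 CPM in members, and at 137 and 136 CPM for *H2-DMb2*. None of the 13 costimulation and checkpoint genes outside the rule passed 2-fold in both libraries.

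Among chemokines, 2 of 18 were at least 2-fold higher (*Ccl17* and *Ccl24*) and 5 lower. *Ccl8*, *Ccl12*, *Ccl7* and *Ccl2*, all ligands that draw monocytes, were lower with *Pf4*. *Ccl2* stood at 955 and 739 CPM against 2181 and 1686. Of 25 cytokines and growth factors, *Il6* and the epidermal growth factor receptor ligand *Areg* were higher, *Areg* at 197 and 107 CPM against 33.0 and 40.0. *Il10*, *Il18*, *Pdgfc*, *Gdf15* and *Spp1* were lower. None of 9 chemokine receptors passed 2-fold in both libraries.

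Fusion and tissue-remodelling genes other than the markers were mostly near the level of other phagocytes. Of 16 fusion and osteoclast-type genes, none was at least 2-fold higher in both libraries and *Mmp9*, a gelatinase, was lower at 2.69 and 2.19 CPM against 7.62 and 10.3. *Mmp9* had too few UMIs in members to be called higher. Of 16 metalloproteases and inhibitors, *Timp1*, an inhibitor, was higher at 76.3 and 90.9 CPM against 23.7 and 39.7, and *Mmp8*, *Mmp9*, *Mmp13* and *Timp3* were lower. *Mmp19* stood at 601 and 674 CPM against 193 and 372, above 2-fold in IgG only. Of 5 secreted ribonucleases tested, *Rnase4* and *Ang* were lower, *Rnase4* at 35.0 and 63.5 CPM against 216 and 163. *Ear2* and *Rnase2a* thus stood apart from these in direction, as the rule set.

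Genes that GM-CSF controls in lung macrophages included 2 of 12 that were higher, *Lpl* and *Bhlhe40*, and 2 that were lower, *Bhlhe41* and *Il18*. *Lpl*, lipoprotein lipase, stood at 2319 and 1160 CPM against 578 and 543, and *Bhlhe40*, a transcription factor, at 374 and 310 CPM against 94.9 and 124. The lung macrophage genes *Marco*, *Krt79* and *Krt19* were at 0 in members. Of 18 lipid and lysosome genes outside the rule, *Lpl* was higher and *Apoe*, *Ctsl* and *Msr1* were lower. *Apoe* stood at 638 and 1594 CPM against 6680 and 6700. Members with 4 or more of the 6 lipid-handling genes had been left out by the rule.

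Of 25 transcription factors, *Irf4*, *Batf3* and *Bhlhe40* were higher and *Maf* and *Bhlhe41* lower. *Maf*, a factor of resident macrophages, stood at 119 and 187 CPM against 971 and 663. Of 12 C-type lectins, *Mgl2* and *Clec4b1* were higher and *Clec4d* and *Clec5a* lower. Of 15 efferocytosis and Fc receptor genes, 5 were lower and none higher. Of 12 eicosanoid genes, *Ltc4s*, *Hpgds* and *Hpgd* were lower. *Slc40a1*, which encodes the iron exporter ferroportin, was the only one of 9 iron and heme genes that was lower, at 0 and 0.730 CPM against 13.6 and 10.4. It also had too few UMIs in members to be called higher. No gene of glycolysis (15 tested) passed 2-fold in both libraries.

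Some members had transcripts of cycling cells. *Top2a*, a topoisomerase of dividing cells, stood at 72.7 and 65.7 CPM against 27.8 and 25.2, and *Pclaf*, a PCNA-binding protein, at 80.8 and 47.8 CPM against 16.2 and 14.5. These were the 2 of 15 cell cycle genes that passed 2-fold in both libraries, and none was lower. *Pclaf* was found in only 12 and 19 members, and 79 of its 90 IgG and 120 of its 131 SPP1-nAb UMIs lay in members outside the 3 leading clusters. Of those members, 69.6% and 41.2% had doublet scores in the top 10%, and the part of doublets in these values was not tested. At least 3 of 16 cell cycle genes had a UMI in 18.2% (12.2% to 25.7%) and 25.1% (20.4% to 30.3%) of members, against 8.44% and 12.2% of other phagocytes, which were shallower.

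*Spp1* stood at 350 and 397 CPM in members against 822 and 1184 in other phagocytes. The rule kept lipid-handling barcodes out of the members but not out of the other phagocytes, and *Spp1* stood at 3077 and 3111 CPM in the lipid-handling set. It was below the members in the resident set (55.8 and 110 CPM) and in the dendritic set (65.4 and 250 CPM). Of the 390 *Spp1* UMIs of IgG members, 323 lay in the second cluster (1068 CPM there, and between 40.1 and 102 CPM in the other members), and 5 members held 64.9%. In SPP1-nAb, 240 of 1087 UMIs lay there (468 CPM), against 248 CPM in the first cluster, 409 CPM in the third and 473 CPM elsewhere. In that library 5 members held 44.4%. *Spp1* had a UMI in 25.5% and 31.8% of members and in 27.0% and 40.0% of the others. At 2000 UMIs per barcode the shares were 12.4% and 19.7% in members and 21.7% and 30.7% in the others. The antibody binds the protein, so its transcript is no measure of the neutralization. Of 7 SPP1 receptor genes, *Itga9* was lower at 3.59 and 16.1 CPM against 41.8 and 37.9. *Itga9* had too few UMIs in members to be called higher. *Cd44*, the hyaluronan receptor that also binds SPP1, stood at 974 and 1008 CPM against 820 and 1006.

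*Gfp*, the reporter transcript, had a UMI in 80.3% and 79.1% of members, against 44.4% and 56.9% of other phagocytes. Its level was 351 and 347 CPM in members against 227 and 282 CPM. At 2000 UMIs the shares were 48.2% and 41.4% against 28.6% and 34.8%. They were 30.9% and 41.1% in the dendritic set and 34.2% and 38.9% in the lipid-handling set, and in SPP1-nAb the counting intervals of all 3 overlapped. The Schwann cell gene *Ngfr* was at 0.898 and 1.46 CPM in members. What placed *Gfp* transcripts in phagocytes was not tested.

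Members with *Dcstamp* without *Rnase2a* and those with *Rnase2a* without *Dcstamp* differed in many other genes. This split was chosen after its values were seen and is described only. Of 4830 genes, 60 (1.24%) were at least 2-fold higher with *Dcstamp* in both libraries and 73 (1.51%) at least 2-fold higher with *Rnase2a*. *Cd226* stood at 214 CPM (IgG), or 136 CPM (SPP1-nAb), with *Dcstamp*, against 25.2 and 15.7 CPM with *Rnase2a*. *Lyz1*, a second lysozyme gene close in sequence to *Lyz2*, stood at 685 and 243 CPM against 20.2 and 28.7. *Irf4*, *Ccl17*, *Areg*, *H2-DMb2*, *Il1rl1*, *St3gal5*, *Aldh1a2* and *Gfra2* followed them. *Il1rl1*, the IL-33 receptor, stood at 62.8 and 46.4 CPM against 0 and 8.32.

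On the *Rnase2a* side, *Chil3*, a chitinase-like protein of alternatively activated macrophages, stood at 353 and 880 CPM, against 15.3 and 14.7 CPM with *Dcstamp*. *Nrg1*, neuregulin 1, a growth factor for Schwann cells, stood at 237 and 266 CPM against 29.1 and 38.4. The matrix protein *Thbs1* stood at 514 and 1007 CPM against 123 and 220. *Igfbp5*, *Tmem26*, *Slc7a2*, *Ccl12*, *Tfec* and *Arrdc4* were also among the 10 leading genes on this side. Of the other markers, *Retnla* was high on both sides, at 5248 and 8372 CPM against 5084 and 3678, and so was *Ear2*, at 852 and 904 CPM against 591 and 779. *Mmp12* was not, at 182 and 346 CPM with *Rnase2a* against 2570 and 2979 CPM with *Dcstamp*.

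The split went in part with the clusters. Of the *Dcstamp* members, 53 of 85 (IgG) and 56 of 89 (SPP1-nAb) lay in the first cluster. Another 17 and 11 lay in the second, 2 and 1 in the third and 13 and 21 elsewhere. Of the *Rnase2a* members, 1 of 23 and 9 of 136 lay in the first, 11 and 30 in the second, 5 and 37 in the third and 6 and 60 elsewhere.

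Between the libraries, SPP1-nAb members had more *Ccl8* and *Tmem26* and less *Lyz1*, *Cxcl3*, *Cxcl10* and *Cd226*, and more collagen transcripts that came from a few barcodes. The size of several of these differences depended on how members were chosen. Of 4845 genes tested, 82 (1.69%) were at least 2-fold above IgG and 28 (0.578%) at least 2-fold below. In other phagocytes, which are far more numerous, 14 (0.289%) and 7 (0.144%) of the same genes were. Median log2 ratios over these genes were 0.04 in members and 0.03 in other phagocytes. Since the make-up of the members differed as described, a difference between libraries can come from a different mix of cells or from each cell, and these cannot be told apart in the summed counts.

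*Ccl8*, a monocyte chemokine, stood at 42.2 and 331 CPM, a log2 ratio of 2.97 (2.55 to 3.43), and it differed little in other phagocytes (-0.04). It had a UMI in 11 and 65 members, and 5 members held 87.2% of its IgG UMIs and 49.4% of its SPP1-nAb UMIs. With members chosen anew and measured at 2000 UMIs per barcode, which left 30 and 63 of them, the log2 ratio of *Ccl8* was 0.0076. It lay between 2.56 and 4.40 under the other alternatives, and why it was lower at 2000 UMIs was not tested. *Tmem26*, a membrane protein, stood at 5.39 CPM (6 UMIs) and 36.5 CPM, in 3 and 48 members, a log2 ratio of 2.76 (1.59 to 4.24). In other phagocytes it was also higher in SPP1-nAb, at 8.84 and 18.5 CPM, a log2 ratio of 1.07 (0.93 to 1.21). Of its 100 UMIs in SPP1-nAb members, 90 lay in those with *Rnase2a* without *Dcstamp*.

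Among the 10 genes with the largest ratios were also *Mgp*, *Col3a1*, *Col1a1*, *Col1a2*, *Sparc*, *Bgn* and *Serping1*, all abundant in mesenchymal cells. *Col1a1*, type I collagen, stood at 20.7 and 216 CPM, a log2 ratio of 3.39 (2.79 to 4.06), but 5 members held 87.2% of its SPP1-nAb UMIs. *Mgp*, matrix Gla protein, stood at 24.2 and 262 CPM, and 5 members held 85.1% of the latter. At least 3 of 6 mesenchymal genes had a UMI in 7 IgG (5.11%) and 12 SPP1-nAb members (3.86%). Without these, the log2 ratio was -0.37 for *Col1a1*, -0.41 for *Mgp*, -1.37 for *Col3a1*, -0.50 for *Sparc* and -0.35 for *Serping1*, so the direction of these genes rested on a few barcodes. It was 0.64 for *Col1a2* and 0.89 for *Bgn*. *Col3a1* and *Col1a1* are among the 6 mesenchymal genes, so for them the barcodes were left out by the same transcripts that were then measured.

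Among the genes with lower values in SPP1-nAb members, *Lyz1* stood at 465 and 92.0 CPM, a log2 ratio of -2.34 (-2.56 to -2.12), and -0.82 in other phagocytes. *Cxcl3*, a neutrophil chemokine, stood at 314 and 76.3 CPM, a log2 ratio of -2.04 (-2.30 to -1.79), and 0.37 in other phagocytes. It was found in 17 and 43 members, and 5 of them held 69.4% of its IgG UMIs. *Cxcl10*, an interferon-induced chemokine, stood at 181 and 48.5 CPM, and *Cd226* at 154 and 61.0 CPM. For *Cd226* the log2 ratio was -1.34 in members and -1.33 in other phagocytes. With at least 3 markers required, the log2 ratio was -0.82 for *Cxcl3* and -0.71 for *Cxcl10*, and with at least 5 it was -0.95 for *Lyz1* and -0.93 for *Cd226*, all less than 2-fold. Without the first cluster *Cxcl10* was at -0.87. *Tnf* stood at 208 and 88.3 CPM and *Lpl* at 2319 and 1160 CPM. *Rgs1*, *Gm14636*, *Plk2* and *Apod* were the other 4 of the 10 lower genes. *Apod*, a lipocalin, had 95.8% of its IgG UMIs in 5 members, and its log2 ratio of -1.20 was 0.72 without the members with mesenchymal genes.

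Within the first cluster, where the mix was narrower, the log2 ratio was 3.01 for *Ccl8*, -1.70 for *Lyz1*, -1.60 for *Cxcl3*, -3.67 for *Cxcl10* and -0.81 for *Cd226*. These had the direction seen over all members. Those of *Col1a1* (-0.69), *Col1a2* (-0.69), *Col3a1* (-1.69) and *Mgp* (-0.37) did not, and they rest on the few UMIs of these genes in that cluster. *Sparc* (0.71) and *Serping1* (2.31), also abundant in mesenchymal cells, had the direction seen over all members. They too rest on few UMIs there, 8 (IgG) and 21 (SPP1-nAb) of *Sparc* and 1 and 8 of *Serping1*.

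**Figure D5:**
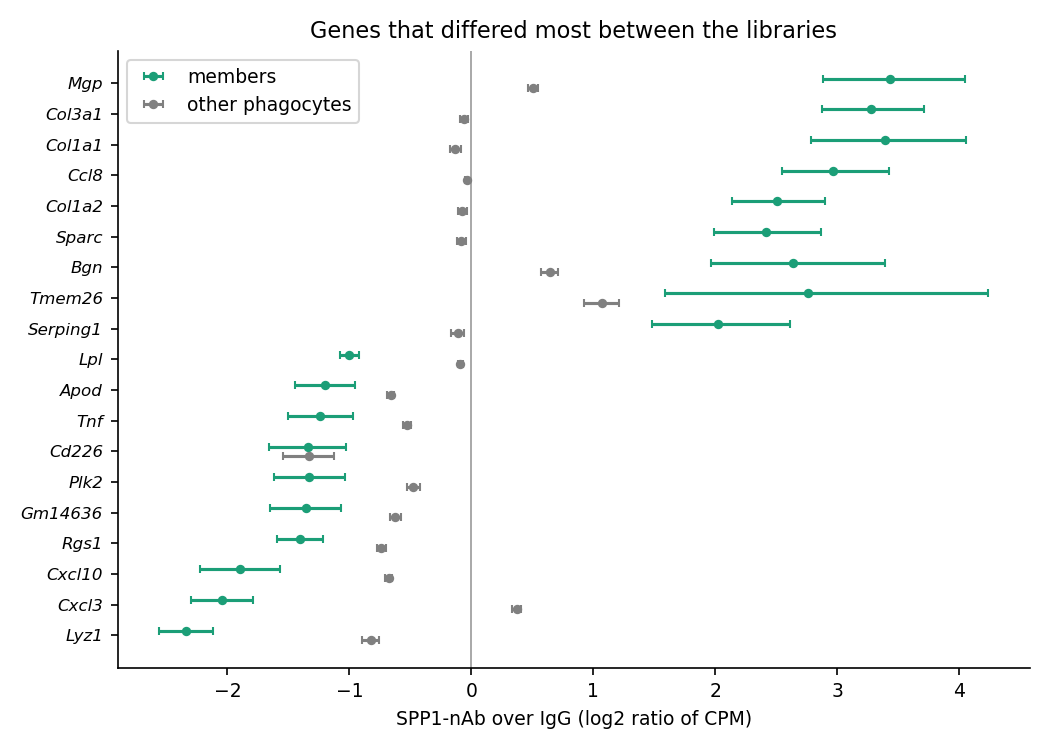
Log2 ratio of CPM in SPP1-nAb over IgG for 9 genes above and 10 below, in members and in other phagocytes (points with 95% counting intervals). Members and other phagocytes lie together for *Cd226* and lie apart for *Ccl8*, *Cxcl3* and the collagen genes.

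Genes of other cell types were low in members, apart from the mesenchymal list. Summed over its 6 genes, that list stood at 493 and 1126 CPM in members, against 991 and 655 CPM in other phagocytes, with *Col3a1* its most abundant gene in SPP1-nAb. The 7 neutrophil genes summed to 21.6 and 93.8 CPM against 170 and 518, with *Retnlg* at 0. Of the eosinophil genes, *Ccr3*, *Il5ra*, *Prg2*, *Epx* and *Prg3* were at 0 in members although *Ear2* and *Rnase2a* are named for that cell. *Siglecf*, the other one of the list, was at 2.69 and 3.65 CPM. All 7 mast cell or basophil genes were at 0, as were the B cell genes *Cd79a* and *Pax5*, while *Cd79b* was at 1.80 and 5.11 CPM. The 7 T or NK cell genes summed to 8.08 and 0.730 CPM against 1.05 and 3.06, with *Cd3e*, *Cd3g*, *Trac* and *Trbc2* at 0 and *Nkg7* the most abundant, at 6 UMIs in IgG members and none in SPP1-nAb members. *Klrk1* and *Cd226*, receptors also found on NK cells, are not in that list and were higher in members. The lists for endothelial (16.2 and 33.6 CPM), satellite (18.9 and 6.94), Schwann (2.69 and 6.94), pericyte (18.0 and 4.38) and tendon cells (1.80 and 87.6) were each below 100 CPM in sum.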

How the data were processed

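Counts of UMIs per gene and barcode were used as deposited by the authors, who processed each 10x Genomics library with Cell Ranger 8.0.0 on GRCm39 with a GFP sequence added, per the labels and methods; the file headers name a later release, and the methods also mention GRCm38. The filtered matrices hold raw counts, before the study's own removal of ambient RNA. Gene coordinates are from GENCODE M39 (GRCm39), in which 31674 of 32287 identifiers were found, and promoters from RefSeq (GRCm38.p6).

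Members and lists were chosen with earlier results of these data known. UMIs were summed over members per library and given as CPM with exact Poisson intervals, and shares with Clopper-Pearson intervals. With 1 library per group no test was run, and a 2-fold ratio was the rule of size, for genes with at least 100 UMIs in members over both libraries and 20 members with a UMI, or 300 UMIs in other phagocytes. UMIs are counts of molecules, but intervals do not cover variation between mice. Named genes were those of the rule, *Spp1* and its receptors, the lists, by their most abundant genes and those past 2-fold, the 25 highest and 15 lowest ratios to other phagocytes and the 10 per direction between libraries, mitochondrial, ribosomal, hemoglobin, immunoglobulin and sex-linked genes left out. Clusters came from leidenalg 0.10.2 (resolution 1, 30 principal components, 20 neighbors, 2000 variable genes), with Python 3.11.15, numpy 2.4.6, scipy 1.17.1 and scikit-learn 1.9.0. Doublets were scored from 2 simulated pairs per barcode and 50 neighbors and were kept. The scripts were tested on simulated data. Alternatives were the depth, the rule, doublets, filters, scaling and clustering; those on the first cluster and on mesenchymal genes were chosen after seeing the data. A few genes that the rule for named genes would take are not reported here.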

Additional observations from a re-analysis of the deposited data

Results flagged for a closer look

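For 7 genes the ratio of SPP1-nAb over IgG was at least 2-fold in members and had the opposite sign in other phagocytes. The difference between the 2 sets of cells was not tested, since each library is a single sample. In members the log2 ratio was 3.28 for *Col3a1*, 3.39 for *Col1a1*, 2.51 for *Col1a2*, 2.41 for *Sparc* and 2.02 for *Serping1*, against values between -0.13 and -0.06 in other phagocytes. For *Ccl8* it was 2.97 in members and -0.04 in other phagocytes, and for *Cxcl3* it was -2.04 and 0.37. The values in other phagocytes were close to 0 for all of these but *Cxcl3*. Without the members that had at least 3 mesenchymal genes, *Ccl8* (2.81) and *Cxcl3* (-2.06) kept their sign, *Col1a2* was at 0.64, and the other 4 turned. With members chosen anew at 2000 UMIs per barcode (30 and 63), *Ccl8* was at 0.0076 and *Cxcl3* at -2.43. With at least 3 markers *Cxcl3* was at -0.82.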

How the results depend on the processing

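The share of members was higher in SPP1-nAb under all 22 alternatives. Its ratio of 2.14 was 1.61 at 4000 UMIs per barcode, 2.93 without the first cluster, 2.98 without *Dcstamp*, 1.55 without *Rnase2a*, 1.72 without *Ear2*, 2.71 without *Mmp12* and 1.70 without *Pdcd1lg2*. Against 82 genes at least 2-fold above IgG, 7 passed at 2000 UMIs (2 of the 82 among them), 35 with at least 5 markers (15 of the 82), 148 at a minimum of 50 UMIs (all 82), 34 at 300 (all among the 82) and 28 in the first cluster alone (6). Against 28 genes below, 5 passed at 2000 UMIs (none of the 28), 63 with at least 3 markers (15 of the 28), 63 at 50 UMIs, 15 at 300 and 46 as a mean over cells. Against 79 genes above other phagocytes, 9 passed at 2000 UMIs (5 of the 79), 52 with at least 5 markers (36), 128 at 50 UMIs, 36 at 300, 152 against the lipid-handling set (69) and 37 without the first cluster (30). Against 395 below, 135 passed at 2000 UMIs, 207 against the lipid-handling set, 652 in the first cluster alone, 234 without it and 640 without members with mesenchymal genes, the other phagocytes not being trimmed likewise. Thinning left 30 and 63 members and fewer genes tested. The genes tested between libraries numbered 4845, but 300 at 2000 UMIs, 2353 with at least 5 markers and 7041 with at least 3. They numbered 6683 at a minimum of 50 UMIs, 2205 at 300 and 2165 in the first cluster alone. The summed level of the 7 markers, 8300 and 8833 CPM, was 8771 and 9772 CPM in UMIs not used for the choice and 8674 and 9379 CPM without the highest doublet scores. The first cluster held 34.3% and 22.8% of members at resolution 0.5, 32.8% and 18.3% with 15 components, and 38.0% of IgG members at resolution 2.

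Between libraries, the log2 ratio of *Apod* turned to 4.06 with at least 5 markers, 0.16 in the first cluster and 0.72 without mesenchymal genes. In the first cluster *Col1a1* and *Col1a2* turned to -0.69, *Col3a1* to -1.69 and *Mgp* to -0.37. Without mesenchymal genes *Col1a1* turned to -0.37, *Col3a1* to -1.37, *Mgp* to -0.41, *Serping1* to -0.35 and *Sparc* to -0.50. At 2000 UMIs, the ratio of members to other phagocytes turned to 0.20 for *Chp2*, 0.075 for *Ctla2b*, 0.11 for *Rasgrp3*, 1.09 for *Rhobtb1* and 1.21 for *Tnnc2*, each with few UMIs. Otherwise the cause was not tested. *Ccl8* between libraries was 0.0076 at 2000 UMIs. Of the values for single genes, 482 moved by less than 1.5-fold and 150 moved further without turning. No paired analysis was possible because each group had 1 library. Depth limited the genes tested, and members held 1113418 and 2739510 UMIs.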
